A study of Mus musculus with 8 samples.

Results

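The immunoglobulin gene segments described here are 38 probe sets, of the 45101 on the array, that the platform annotation assigns to a single immunoglobulin heavy or light chain symbol. A probe set was a member if its symbol began with Ighv, Igkv, Iglv, Ighg, Igkc or Iglc, or was Ighm, Ighd, Igha or Ighe, and no member was dropped for a low value. Of the 38, 18 belonged to constant regions (11 for Ighm, 4 for Ighg3 and 3 for Igha) and 20 to V segments of 15 genes (16 kappa probe sets, 3 for the lambda segment Iglv1 and 1 for the heavy chain segment Ighv14-2). They stand for 18 of the 18193 genes with a probe set of their own on the array. No probe set carried Ighd, Ighe, Igkc, Iglc or another Ighg symbol alone, so IgD, IgE and the other IgG subclasses are not covered. A further 13 probe sets named an immunoglobulin segment among several symbols and were not members.

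Spleen cells were taken from male C57/BL6 mice, with 1 Affymetrix Mouse 430 2.0 array per mouse. The groups were HMGA1a transgenic mice (TG) at 12 months, control littermates of wild type genotype (WT) at 12 months, TG mice at 2 months and WT mice at 2 months, each with 2 mice. HMGA1a is a chromatin protein that binds AT-rich DNA, and the promoter that drives the transgene is not given in the sources used here. By the series' design text, lymphoid tumours form in the TG mice between these ages, so the younger TG mice were sampled before tumours and the older ones with them.

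B cells build each antibody gene by joining V, (D) and J segments, a process called V(D)J recombination. Each B cell and its descendants therefore usually express 1 productive heavy and 1 productive light chain rearrangement. A naive B cell makes IgM from Ighm. On activation it can switch to IgG (Ighg3 encodes the IgG3 heavy chain) or IgA (Igha), and plasma cells, the antibody-secreting end stage, hold far more immunoglobulin RNA per cell than resting B cells do. In spleen RNA, fewer cells of a type and less RNA per cell cannot be told apart.

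Values are signals on a linear scale, as deposited, and folds are differences of log2(signal + 16), given ± SE from a limma model of all 8 arrays with 45037 probe sets tested. P-values were adjusted over all of these probe sets, with a threshold of 0.05. Array medians ran from 44.9 to 49.5 in signal. The highest signal on an array was 13794 to 16610 on the 4 replicate 1 arrays and 20868 to 23840 on the 4 replicate 2 arrays, so replicate numbers are compared within themselves below. Among the 14 members with a mean signal of 1000 or more, the median difference of replicate 2 over replicate 1 was 0.42 on the log2 scale, against 0.07 for all such probe sets, and 8 of the 14 were higher in replicate 2 in all 4 groups (35.8% of all such probe sets were). The summed signal of exocrine pancreas markers was 13535 on the WT 2-month replicate 1 array and 485 to 777 on the other 7.

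The signals differed widely among the members. The brightest were the Ighm probe sets 1427329_a_at and 1427351_s_at, which lay among the 87 brightest probe sets of every array. Of the 38 members, 29 had a mean level at or over the median of all probe sets and 9 lay below it. Probe sets with the same symbol did not always move together. The other 2 Igha probe sets each had r of 0.98 with the brightest one over the 8 arrays, and the 2 bright Ighm probe sets had r of 0.97 with each other. The other 9 Ighm probe sets had r between 0.05 and 0.72 with 1427329_a_at, and the 3 dimmer Ighg3 probe sets had r between 0.43 and 0.70 with 1427503_at. These are descriptions over arrays that share the 4 groups and the replicate numbers. Of the 38 members, 13 end in _x_at or _s_at, the manufacturer's mark for probes that can bind related transcripts. Probe sets with and without this mark were among those with high r and among those with low r. The part of the mark in these values was not tested.

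**Figure D1:**
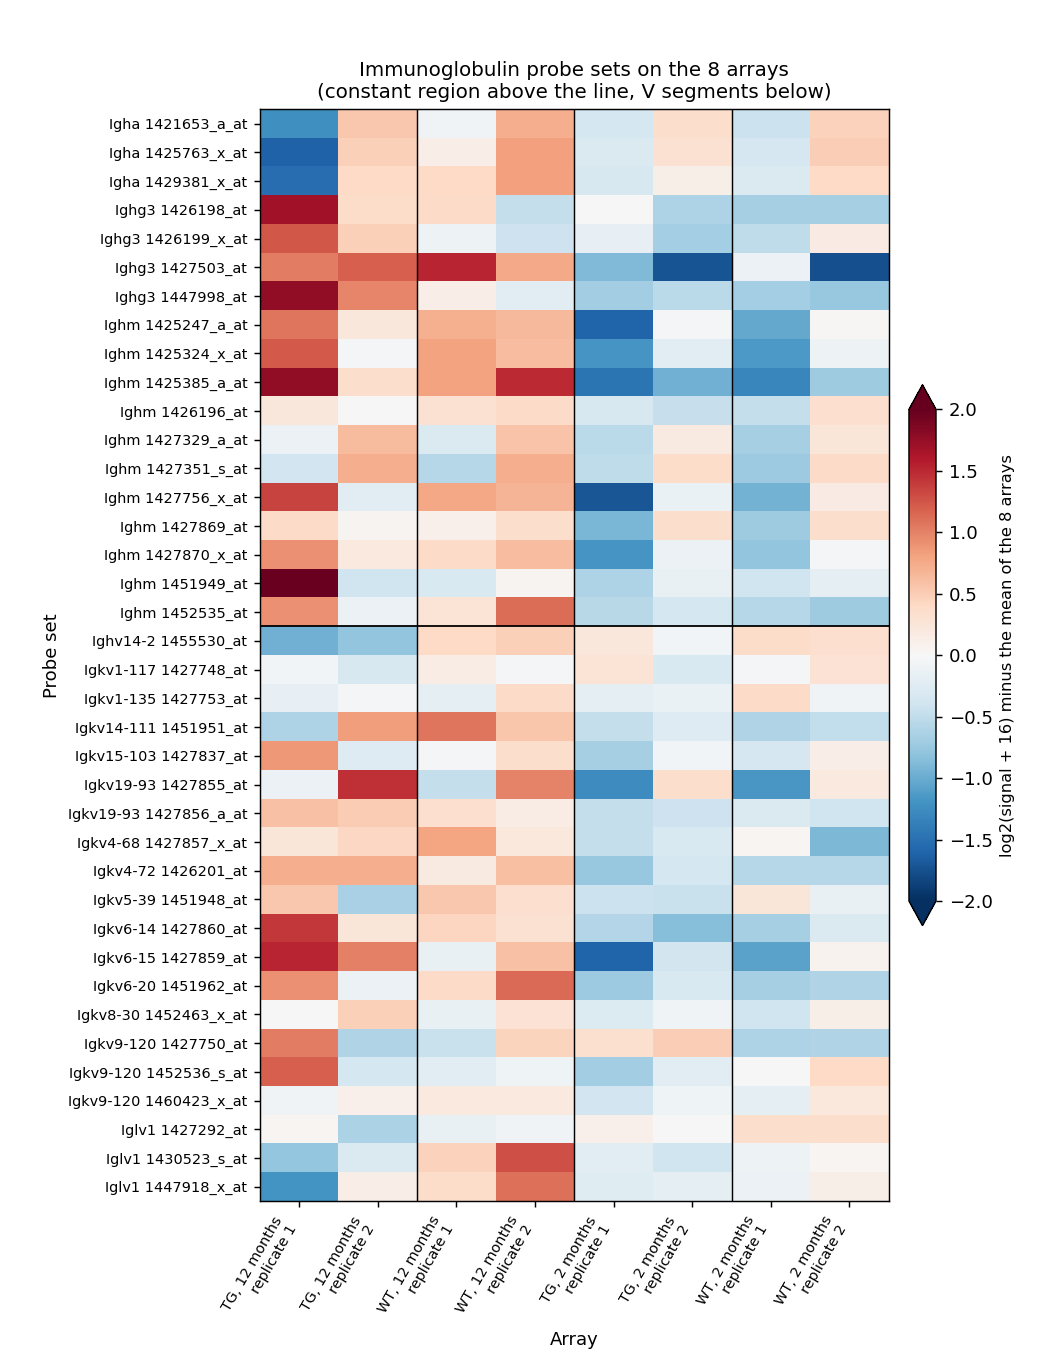
Level of each of the 38 immunoglobulin probe sets (rows) on the 8 arrays (columns), as log2(signal + 16) minus the mean of the 8 arrays, with red above and blue below that mean and colours capped at 2. Most rows are red on 12-month arrays and blue on 2-month arrays, and the TG 12-month replicate 1 array holds the highest value of 17 rows and the lowest of 7, among them the 3 Igha rows.

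The clearest common pattern was age. In TG mice 29 of 38 members were higher at 12 than at 2 months (49.8% of all probe sets were), with a median log2 fold of 0.69. In WT mice 33 of 38 were higher (51.3% of all probe sets), with a median of 0.59. The median over all probe sets was 0.00 in TG and 0.01 in WT. Within replicate 1 and replicate 2 the members' medians were 1.10 and 0.28 in TG mice, and 0.65 and 0.49 in WT mice. The highest of the 8 arrays was a 12-month array for 35 of 38 members (58.6% of all probe sets), and the lowest was a 2-month array for 28 (44%).

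No member passed the limma test of age after adjustment in TG mice (0.00444% of all probe sets did, 2 in number) or in WT mice (0%), and the smallest adjusted p of a member was 0.507 in TG and 1 in WT mice. Without adjustment, 15 members were higher with p under 0.05 in TG mice (2.16% of all probe sets) and 11 in WT mice (1.37%). In the other direction there was 1 such member in TG mice (2.2%) and 0 in WT mice (1.19%). With the replicate number as a block the adjusted test still called no member, its smallest adjusted p of a member being 0.079 in TG mice (0.0222% of all probe sets passed) and 0.952 in WT mice. The unadjusted counts were then 19 in TG mice (4.28%) and 17 in WT mice (2.67%). With the block and only probe sets at or over the median level, a setting chosen after seeing the data, 5 members passed in TG mice (0.155% of probe sets) and 0 in WT mice. Without TG 12-month replicate 1 the TG count of 15 was 8 (3.4% of all probe sets), and without TG 2-month replicate 1 it was 9 (1.99%). The WT count of 11 was 7 without WT 2-month replicate 1 (1.52%), 6 without WT 12-month replicate 1 (1.95%) and 6 without WT 12-month replicate 2 (1.24%).

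The 12-month arrays lay wholly above the 2-month arrays for 18 members in TG mice (14.3% of all probe sets) and for 20 in WT mice (14.6%). They lay wholly below for 1 member in TG mice (15%) and for 2 in WT mice (12.3%). Paired by genotype and replicate number, 19 of 38 members were higher at 12 months in all 4 pairs (7.15%) and 1 was lower in all 4 (6.63%). Without the TG replicate 1 pair 25 members were higher in the other 3 pairs (14.3%), and without the WT replicate 1 pair 20 were (13.1%). The 19 comprised 8 Ighm, 3 Ighg3 and 8 kappa V probe sets, and the 1 was Iglv1 1427292_at. Only 2 members were higher by at least 1 log2 unit in all 4 pairs (0.0155% of all probe sets, 7 in number). Both are annotated to constant region symbols, Ighm 1425385_a_at and Ighg3 1427503_at. Ighm 1425385_a_at had r of 0.45 with the brightest Ighm probe set over the arrays, and whether it reads constant region or V sequence was not tested.

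Ighm 1425385_a_at had signals of 14761 and 5490 in TG mice at 12 months and 7542 and 12208 in WT mice at 12 months, against 1559 and 2212 in TG mice and 1743 and 2631 in WT mice at 2 months. All 4 older mice lay above all 4 younger mice. The log2 fold of age was 2.27 ± 0.48 for TG mice and 2.16 ± 0.48 for WT mice (limma, adjusted p of 0.893 and 1.00). On this probe set TG and WT mice of 12 months overlapped.

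Ighg3 1427503_at had signals of 3966 and 4442 in TG mice at 12 months and 5583 and 3282 in WT mice at 12 months, against 1039 and 572 in TG mice and 1784 and 564 in WT mice at 2 months. Here too every older mouse was above every younger one, in either genotype. The log2 fold was 2.42 ± 0.52 for TG mice and 2.07 ± 0.52 for WT mice (adjusted p of 0.893 and 1.00, limma). The Ighg3 probe set 1447998_at had 393 and 220 in TG mice at 12 months, 115 and 87.8 in WT mice at 12 months, 58.1 and 66.7 in TG mice at 2 months and 59.0 and 54.7 in WT mice at 2 months. The ages did not overlap in either genotype, with a fold of 1.99 ± 0.30 for TG mice and 0.68 ± 0.30 for WT mice.

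The brightest Ighm probe set differed far less with age. Ighm 1427329_a_at had 14150 and 23840 in TG mice and 12587 and 22882 in WT mice at 12 months, against 10595 and 17385 in TG mice and 9719 and 18157 in WT mice at 2 months. Within each replicate number the older arrays were above the younger ones, while the replicates lay further apart than the ages did. The fold was 0.44 ± 0.49 in TG mice beside 0.35 ± 0.49 in WT mice, and 1427351_s_at had 0.25 ± 0.61 in both. These signals lay near the highest of their arrays, and the part of that in the size of the folds was not tested. Of the other Ighm probe sets, 1425247_a_at, 1425324_x_at, 1427756_x_at and 1427870_x_at had mean signals of 975 to 2082 in TG mice and 965 to 1957 in WT mice at 12 months, against 375 to 928 in TG mice and 395 to 1068 in WT mice at 2 months. The folds of these 4 reached at most 1.49 in TG mice and 1.34 in WT mice. In replicate 2 alone the folds in TG mice of all 11 Ighm probe sets had a median of 0.27, against 2.08 in replicate 1.

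**Figure D2:**
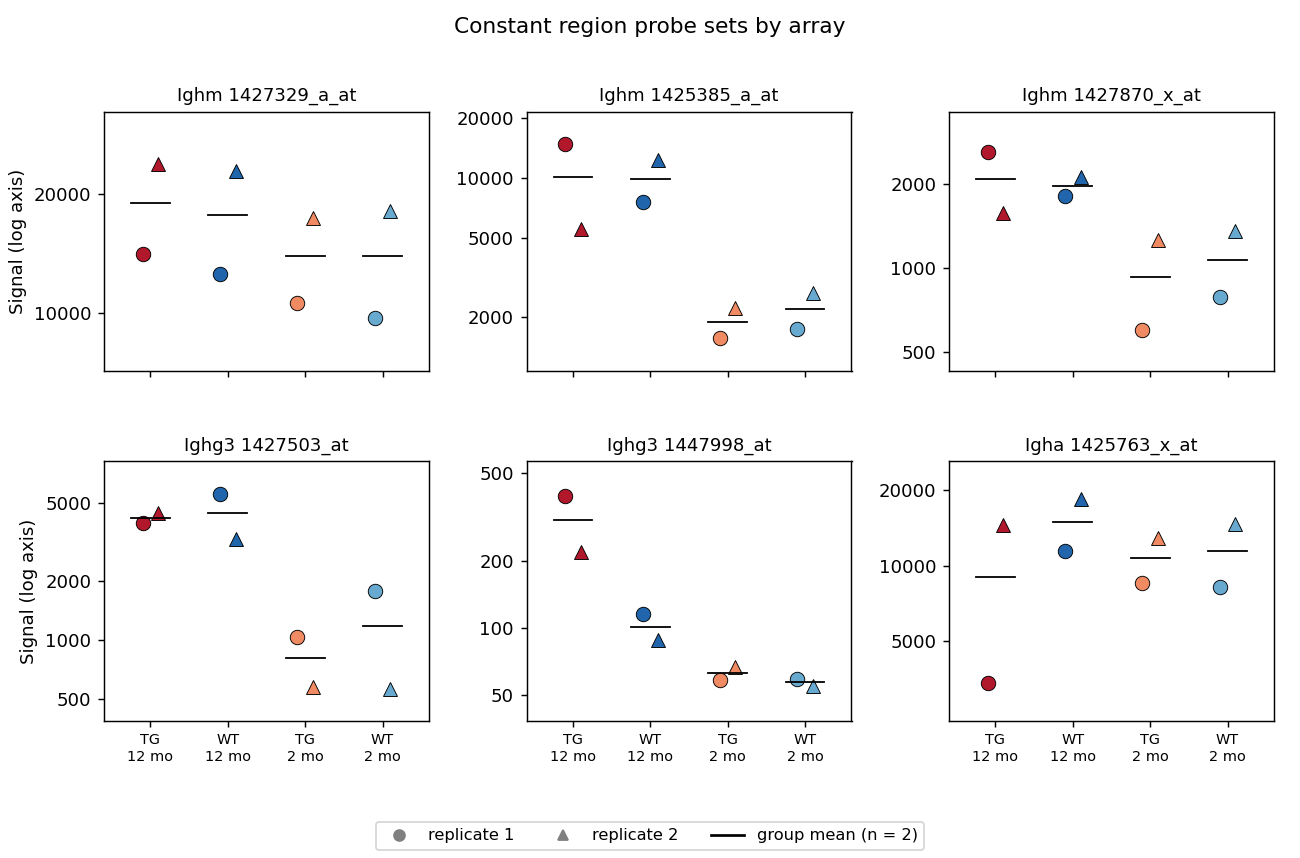
Signals of 6 constant region probe sets on each array (log axis, circles replicate 1, triangles replicate 2, lines group means, n = 2). Ighm 1425385_a_at and Ighg3 1427503_at are above all 2-month arrays on every 12-month array, Ighm 1427329_a_at is split by replicate number in every group, and Igha 1425763_x_at is lowest on TG 12-month replicate 1.

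Igha, the IgA heavy chain, had log2 folds of age from -0.57 to -0.34 in TG mice and from 0.31 to 0.55 in WT mice on its 3 probe sets. The TG sign differed between replicates, with a median of -1.21 in replicate 1 and 0.20 in replicate 2, against 0.48 and 0.32 in WT mice. Probe set 1425763_x_at had 3409 and 14593 in TG mice and 11500 and 18439 in WT mice at 12 months, against 8508 and 12888 in TG mice and 8236 and 14744 in WT mice at 2 months. The older and younger arrays overlapped in TG mice and in WT mice. Replicate 2 was the higher array in all 4 groups for each Igha probe set.

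Among the kappa V segments, Igkv4-72 (1426201_at) had the smallest p for age of the V probe sets, in TG mice and in WT mice. Its signals were 758 and 754 in TG mice and 509 and 691 in WT mice at 12 months, against 260 and 347 in TG mice and 299 and 299 in WT mice at 2 months. All older mice lay above all younger ones, with log2 folds of 1.29 ± 0.21 in TG (adjusted p = 0.632, and 0.0790 with the replicate block) and 0.95 ± 0.21 in WT mice (adjusted p = 1.00). Igkv6-14 (1427860_at) had 2304 and 1021 in TG mice and 1152 and 1059 in WT mice at 12 months, against 565 and 466 in TG mice and 534 and 700 in WT mice at 2 months. The ages did not overlap in either genotype, and the fold was 1.55 ± 0.35 for TG mice and 0.84 ± 0.35 for WT mice.

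Igkv6-15 (1427859_at) had the largest V segment fold of age, 2.25 ± 0.53 in TG mice, beside 0.71 ± 0.53 in WT mice. Its signals were 224 and 152 in TG mice and 59.4 and 109 in WT mice at 12 months, against 11.4 and 48.9 in TG mice and 23.8 and 71.9 in WT mice at 2 months. The TG fold was 3.13 within replicate 1, where the signal of 11.4 lay under 16, and 1.37 within replicate 2. The ages overlapped in WT mice and not in TG mice. In WT mice Igkv6-20 (1451962_at) had a fold of 1.39 ± 0.37 and Igkv14-111 (1451951_at) one of 1.36 ± 0.41. Igkv14-111 had 330 and 927 in TG mice and 1105 and 761 in WT mice at 12 months, against 364 and 427 in TG mice and 335 and 361 in WT mice at 2 months, so that among the older mice TG replicate 1 alone lay below all the younger ones. Igkv19-93 had 203 and 639 on 1427855_at in TG mice and 155 and 457 in WT mice at 12 months, against 83.3 and 288 in TG mice and 90.0 and 256 in WT mice at 2 months. The age difference of Igkv19-93 1427855_at held within each replicate number in both genotypes, with folds of 1.14 and 1.11 in TG mice and 0.69 and 0.80 in WT mice, although the ages overlapped across replicate numbers. On the dimmer Igkv19-93 probe set, 1427856_a_at, the ages did not overlap in either genotype. It had 101 and 94.8 in TG mice and 82.7 and 70.2 in WT mice at 12 months, against 40.3 and 42.9 in TG mice and 48.2 and 43.6 in WT mice at 2 months.

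**Figure D3:**
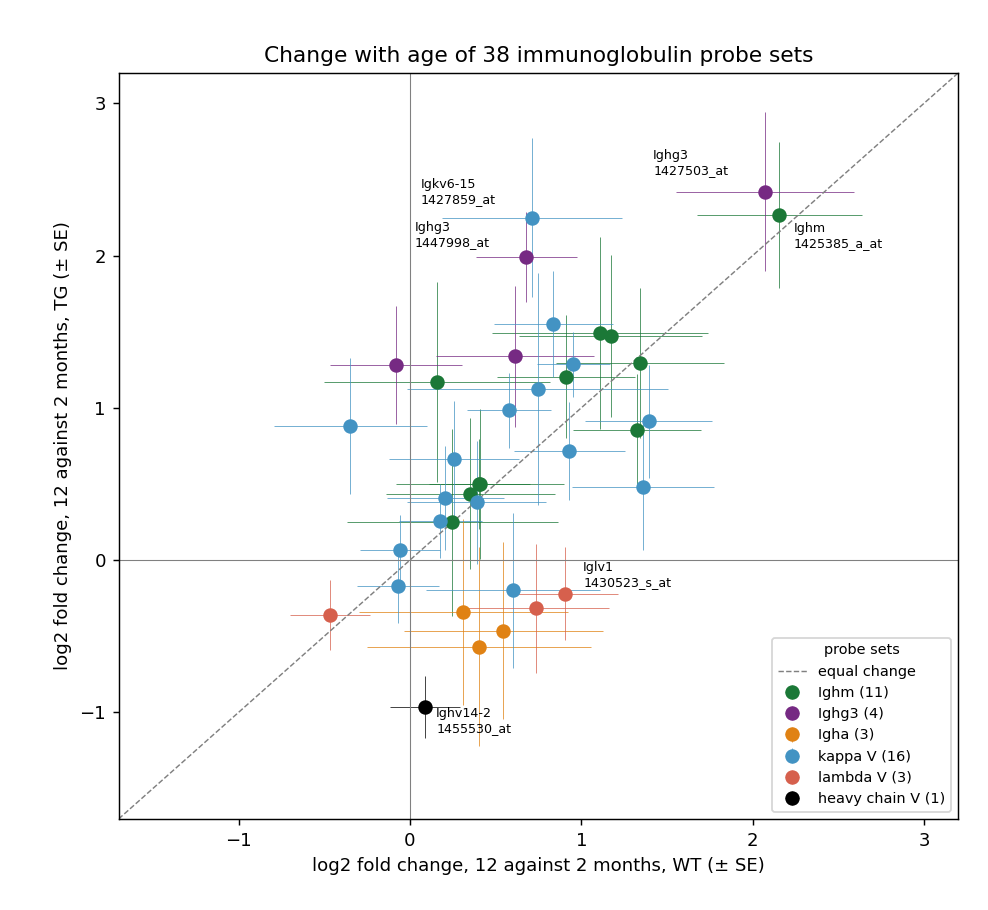
Log2 fold of 12 against 2 months in TG mice (vertical axis) and in WT mice (horizontal axis) for the 38 members, with bars of ± SE and the line of equal change. Ighm 1425385_a_at and Ighg3 1427503_at lie above 2 on both axes, Ighv14-2 lies at -0.96 in TG mice and 0.09 in WT mice, and the 3 Igha probe sets are negative in TG mice, where the sign differed between replicates, and positive in WT mice.

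Against this common age pattern, TG and WT mice of 12 months differed in both directions. In TG mice 16 members were higher (50% of all probe sets) and 22 lower (50%), with a median log2 fold of -0.06, and 0.26 in replicate 1 and -0.32 in replicate 2. No member passed the limma test after adjustment (0% of all probe sets, with 2937 at an unadjusted p under 0.05), and the smallest adjusted p of a member was 0.662, or 0.081 with the replicate block (0.00444% of all probe sets passed with it). At an unadjusted p under 0.05, 3 members were higher in TG (3.12% of all probe sets) and 3 lower (3.41%). The TG arrays lay wholly above the WT arrays for 5 members (16.4%) and wholly below for 6 (16.9%), which is near the background. Without TG 12-month replicate 2 the counts at an unadjusted p under 0.05 were 7 higher (3.72% of all probe sets) and 7 lower (4.43%). They were 1 higher (4.05%) and 5 lower (2.92%) without TG 12-month replicate 1, and 1 higher (2.35%) and 2 lower (2.39%) without WT 12-month replicate 2.

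Ighv14-2 (1455530_at), the one heavy chain V segment among the members, had the smallest p. Its signals were 1395 and 1586 in TG mice and 3628 and 3827 in WT mice at 12 months, and 3225 and 2636 in TG mice and 3526 and 3474 in WT mice at 2 months. The TG mice of 12 months lay below the other 6 mice, and the 2 replicates of each group were close. The log2 fold of TG against WT at 12 months was -1.32 ± 0.20 (-1.37 and -1.26 within replicates 1 and 2), with an adjusted p of 0.662 and of 0.0810 with the replicate block. Within TG mice the fold of age was -0.96 ± 0.20, and within WT mice it was 0.09 ± 0.20. When only the 22519 probe sets at or over the median level were tested with the replicate block, a setting chosen after seeing the data, Ighv14-2 passed, with an adjusted p of 0.0264 (limma). In that setting 0.244% of the probe sets passed, and Ighv14-2 was the only member among them.

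For the lambda V segment Iglv1 the TG arrays of 12 months lay wholly below the WT arrays on 2 of its 3 probe sets. Iglv1 1430523_s_at had 1750 and 2446 in TG mice and 4100 and 7312 in WT mice at 12 months, and 2576 and 2258 in TG mice and 2774 and 3063 in WT mice at 2 months. The older WT mice lay above the other 6 mice. The fold of TG against WT at 12 months was -1.40 ± 0.31 (adjusted p = 0.662, limma), and for 1447918_x_at, with 1365 and 3473 in TG mice and 4085 and 6784 in WT mice, it was -1.27 ± 0.42 (adjusted p = 0.694). The third Iglv1 probe set, 1427292_at, had 340 and 208 in TG mice and 298 and 315 in WT mice at 12 months, and its r with 1447918_x_at over the 8 arrays was -0.20. It was also the member that was lower at 12 months in all 4 pairs.

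Ighg3 was higher in TG mice of 12 months on 3 of 4 probe sets, the dimmer ones. Probe set 1447998_at, whose signals stand above, had a fold of 1.41 ± 0.30 (1.64 and 1.19 within replicates, adjusted p = 0.662, limma), and its TG and WT arrays did not overlap. Probe set 1426199_x_at had 85.0 and 43.3 in TG mice and 23.6 and 16.2 in WT mice, with a fold of 1.11 ± 0.39 (adjusted p = 0.704). Probe set 1426198_at had 69.3 and 18.0 in TG mice and 18.5 and 3.07 in WT mice, with a fold of 1.07 ± 0.46 (adjusted p = 0.763), and its groups overlapped. Both 1426199_x_at and 1426198_at lay below the median level of all probe sets. Their signals were under 16 on 2 and on 5 of the 8 arrays, so their folds are those of values near the floor. The bright probe set 1427503_at did not share this, with 3966 and 4442 in TG mice between the 5583 and 3282 of WT mice and a fold of -0.03 ± 0.52.

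Igha was lower in TG mice of 12 months, mostly on 1 array. The 3 folds lay between -1.17 and -0.67, with a median of -1.75 in replicate 1 and -0.34 in replicate 2. On TG replicate 1 the 3 probe sets had 4000, 3409 and 2901, the lowest of the 8 arrays each time. The TG replicate 2 array, with 13729, 14593 and 11098, lay within the range of the WT mice of 12 months (8937 to 15597, 11500 to 18439 and 11093 to 14791). The Ighm probe sets had a median fold of -0.02, made of 0.42 in replicate 1 and -0.42 in replicate 2, so the sign turned with the replicate number. The kappa V segments had a median of 0.16 over 16 probe sets, with 9 higher and 7 lower. Of these, Igkv6-15 had the fold with the smallest p, 1.05 ± 0.53 (1.67 and 0.43 within replicates 1 and 2, limma adjusted p = 0.799). Igkv4-72 had 0.34 ± 0.21 and Igkv19-93 1427856_a_at had 0.30 ± 0.25. For these and for Igkv6-15 the TG arrays lay wholly above the WT arrays. The bright Igkv9-120 probe set 1460423_x_at had -0.17 ± 0.24, with 4125 and 4648 in TG mice and 4918 and 4955 in WT mice.

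**Figure D4:**
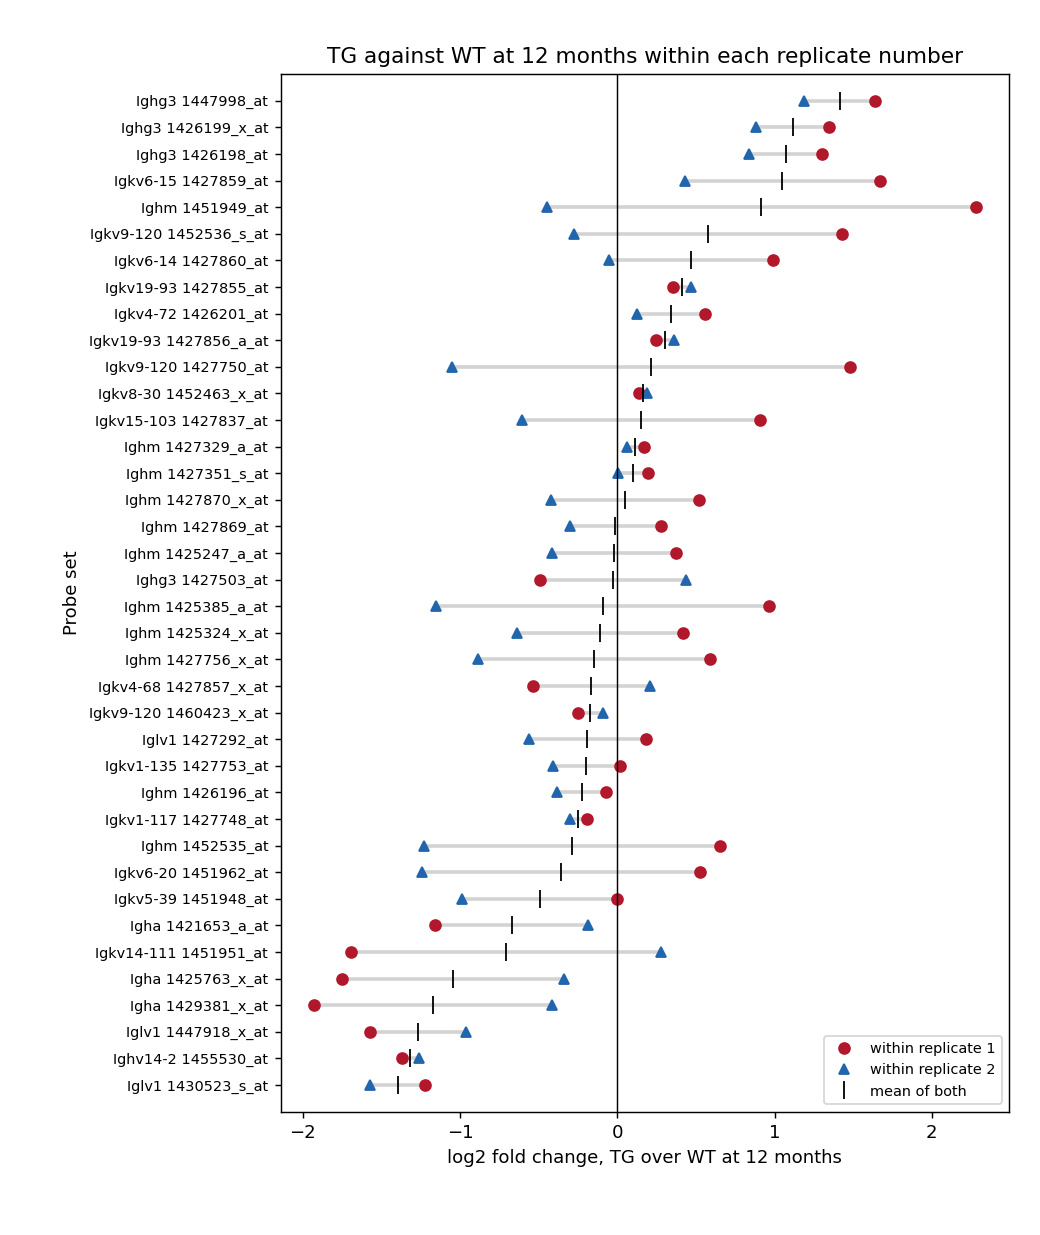
Log2 fold of TG against WT at 12 months for the 38 members, within replicate 1 and within replicate 2 and as fitted over both. Ighv14-2 and Iglv1 1430523_s_at are below -1 and Ighg3 1447998_at is above 1 within both replicates, while the 3 Igha probe sets are far lower within replicate 1 than within replicate 2.

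At 2 months, before tumours, the genotypes were close. In TG mice 11 members were higher (51.4% of all probe sets) and 27 lower (48.6%), and the median log2 fold was -0.15 (-0.12 in replicate 1 and -0.11 in replicate 2). No member had an unadjusted p under 0.05 (1.05% of all probe sets were higher and 0.804% lower at that level), and none passed after adjustment (0%, smallest adjusted p of a member 1.00, limma). TG arrays were wholly above WT arrays for 4 members (12.8%) and wholly below for 8 (10.7%), all 8 of them V segments. The largest folds with groups apart were 1.01 ± 0.51 for the dim Igkv9-120 1427750_at and -0.66 ± 0.45 for Igkv9-120 1452536_s_at, which carry the same symbol and opposite signs. The first of these had signals under 16 on both WT arrays of 2 months, and Igkv1-135, also lower, was under 16 on all 8 arrays. Ighv14-2 was at -0.26 ± 0.20, Igkv5-39 at -0.48 ± 0.41 and Iglv1 1427292_at at -0.30 ± 0.23.

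The difference of the TG effects at the 2 ages was tested as an interaction. No member passed after adjustment (0% of all probe sets, smallest adjusted p of a member 1.00, and 0.71 with the replicate block). At an unadjusted p under 0.05, 2 members were positive (1.45%), namely Ighg3 1447998_at at 1.31 ± 0.42 and Ighg3 1426199_x_at at 1.36 ± 0.55. Another 2 were negative (1.52%), namely Ighv14-2 at -1.05 ± 0.29 and Iglv1 1430523_s_at at -1.13 ± 0.43. Over both ages and replicate numbers TG was below WT in all 4 pairs for 6 members (8.58%) and above in all 4 for 1 (8.45%). The 6 were Ighv14-2, Iglv1 1430523_s_at and 1447918_x_at, Igha 1429381_x_at, Igkv5-39 and Igkv9-120 1460423_x_at, and the 1 was Ighg3 1426198_at.

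Whether a single V segment stood out on an array was asked in 2 ways. The first set each member's highest array against the other 7. On the log2(signal + 16) scale no member was at least 4-fold above the next array (0.133% of all probe sets were). At least 2-fold above it were 2 members (0.662%), neither of them annotated as a V segment. Both were on TG 12-month replicate 1: Ighm 1451949_at, with 200 against 19.8 to 40.8 on the others, and Ighg3 1426198_at, with 69.3 against 0.713 to 18.5. Ighm 1451949_at had r of 0.05 with the brightest Ighm probe set, and whether it reads constant region or V sequence was not tested. The probe set annotated to a V segment that came nearest to this was Igkv6-14, with 2304 on the same array against 466 to 1152. This TG array was also the highest of the 8 for 17 members (14.2% of all probe sets) and the lowest for 7 (17.8%). On it 16 members were more than 2-fold above the median of the other 7 arrays (1.58% of all probe sets) and 5 more than 2-fold below (1.66%). On TG 12-month replicate 2 the counts were 8 above (1.83%) and 1 below (1.29%). On WT 12-month replicate 1 they were 3 (0.706%) and 0 (1.15%), and on WT 12-month replicate 2 they were 8 (1.19%) and 0 (1.34%). On the 2-month arrays no member was above, with 0.591% and 1.25% of all probe sets in TG mice and 0.679% and 1.11% in WT mice. Those below numbered 9 (0.866%) and 3 (1.2%) in TG mice and 8 (0.984%) and 3 (0.939%) in WT mice of 2 months. The median of the other 7 arrays takes in all arrays of the other age. The contrast of the ages in these counts therefore partly repeats the age folds above.

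The V probe set furthest above the median of the other 7 arrays differed between the 12-month arrays, while some of those next in order were shared. On TG replicate 1 they were Igkv6-14 (1.70 on the log2 scale), Igkv6-15 (1.67) and Igkv9-120 1427750_at (1.48). On TG replicate 2 they were Igkv19-93 1427855_at (1.58), Igkv14-111 (1.31) and Igkv6-15 (1.16). On WT replicate 1 they were Igkv14-111 (1.56), Igkv4-68 (0.75) and Igkv6-14 (0.71). On WT replicate 2 they were Iglv1 1430523_s_at, whose signal of 7312 stands above, Igkv6-20 (1.43 on the log2 scale) and Iglv1 1447918_x_at (1.21). Excesses of this size were thus seen in WT as well as TG mice of 12 months. On the 2-month arrays the largest V segment excess was 0.94, of Igkv9-120 1427750_at on TG replicate 2. Members higher with age exceed the median of the other 7 arrays more readily on a 12-month array. The contrast of the ages is therefore no separate sign of single V segments standing out.

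The second way took each V probe set's share of the summed signal of the 20 V probe sets on its array. Probe sets bind with different strength, so these shares are not fractions of transcripts and can be compared only for the same probe set across arrays. Igkv8-30 1452463_x_at held 41.3% and 47.5% in TG mice and 31.7% and 32.6% in WT mice at 12 months, and 39.2% and 41.5% in TG mice and 34.7% and 39.6% in WT mice at 2 months. The share was higher in TG than in WT mice in all 4 pairs, and its signal was too in 3 of them, with 11215 and 15739 in TG mice and 10172 and 13818 in WT mice at 12 months, and 9337 and 10735 in TG mice and 8570 and 12295 in WT mice at 2 months. Over the 8 arrays its r was 0.81 to 0.87 with 3 probe sets annotated to several kappa symbols, Igkv8-30 itself and Igkc among them, and whether it binds other kappa transcripts was not tested. Iglv1 1430523_s_at held 6.45% and 7.38% in TG mice and 12.8% and 17.3% in WT mice at 12 months. Ighv14-2 held 5.14% and 4.78% in TG mice and 11.3% and 9.04% in WT mice at 12 months.

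The inverse Simpson index, which pools the V probe sets of an array into 1 number, turned with the probe sets included and is not read here. Over all 20 it was 4.64 and 3.75 in TG mice and 5.78 and 5.37 in WT mice at 12 months. Over the 14 that do not end in _x_at or _s_at it was 5.59 and 6.61 in TG mice and 3.93 and 4.28 in WT mice at 12 months.

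**Figure D5:**
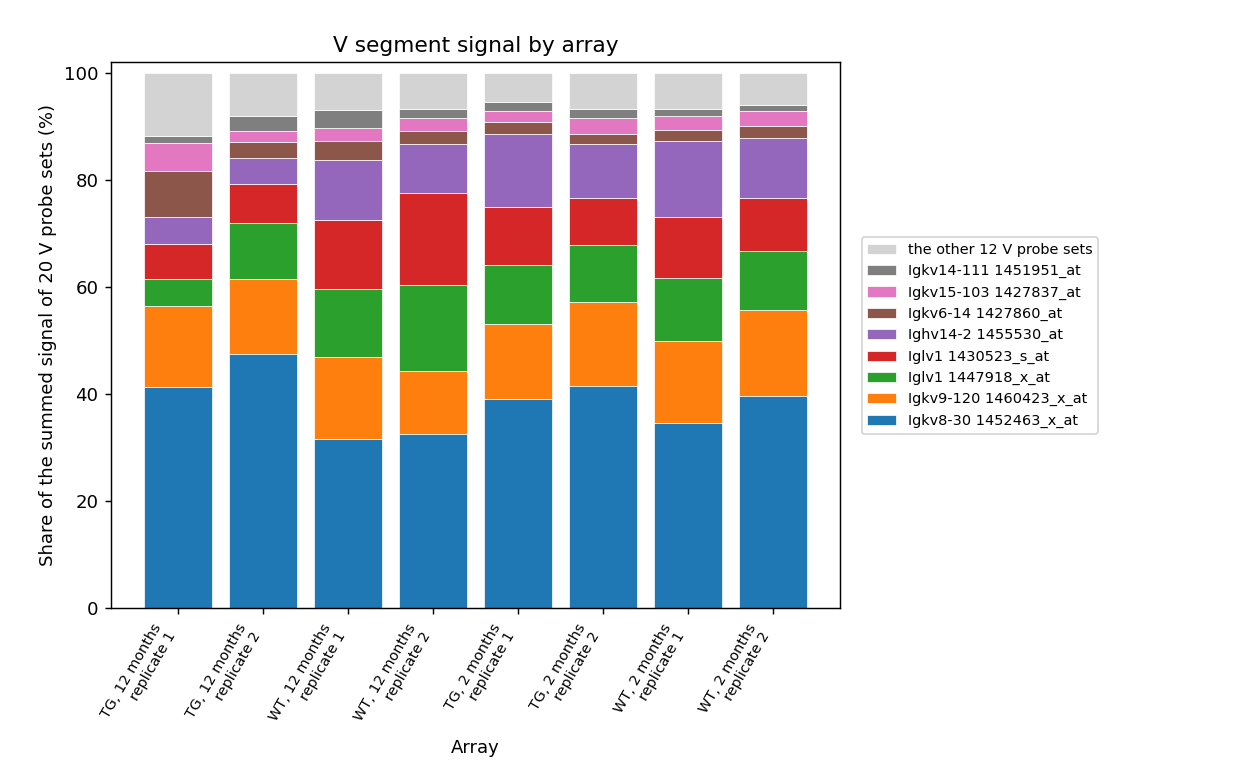
Share of the summed V probe set signal held by 8 V probe sets and by the other 12 on each array, in percent, to be compared for the same probe set across arrays. The share of Igkv8-30 1452463_x_at runs from 31.7% to 47.5% over the 8 arrays, and the shares of Ighv14-2 and Iglv1 1430523_s_at are smaller in TG than in WT mice at 12 months.

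Genes that make and handle antibody were set beside the members. Of 19 genes for antibody assembly and secretion, 17 were higher at 12 months in TG mice, with a median log2 fold of 0.38, and 17 in WT mice, with a median of 0.19, and none passed the test in any comparison. The plasma cell list below shares 8 of the 19. At 12 months 13 were higher and 6 lower in TG than in WT mice, with a median of 0.12. The sign differed between replicates, with a median of 0.32 in replicate 1 and -0.096 in replicate 2. Mzb1, a chaperone of antibody-secreting cells, had 4082 and 8410 in TG mice and 3009 and 3789 in WT mice at 12 months, a fold of 0.79 ± 0.33 (adjusted p = 0.755, limma), and Ssr4, a subunit of the translocon, had a fold of 0.23 ± 0.25. For class switching and somatic mutation 9 genes were measured, of which 5 were higher and 4 lower in TG mice of 12 months. Icosl, the ligand of ICOS on B cells, had 361 and 395 in TG mice and 876 and 763 in WT mice, a fold of -1.08 ± 0.24 (adjusted p = 0.662). Ung, the glycosylase that removes uracil from DNA in switching B cells, had 246 and 205 in TG mice and 140 and 137 in WT mice, a fold of 0.64 ± 0.19 (adjusted p = 0.666).

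Among 10 regulators of immunoglobulin transcription, 5 were higher and 5 lower in TG mice of 12 months. The transcription factors Irf8, which is not limited to B cells, and Ebf1 had folds of -0.60 ± 0.19 and -0.64 ± 0.37. Of 14 B cell receptor signalling genes 11 were lower, with Prkcb, a kinase downstream of the receptor, at -0.38 ± 0.18 and the kinase Btk at -0.42 ± 0.28. The median fold of the 14 was -0.17, with -0.27 in replicate 1 and 0.05 in replicate 2, so its sign turned with the replicate number. The B cell marker list below shares 4 of the 14, Btk among them, and 2 of the 10 regulators, Ebf1 among them. The plasma cell list shares 2 other regulators. Of 12 genes of V(D)J recombination 8 were lower, with Xrcc4, which joins DNA ends, at -0.69. The recombinase gene Rag1 had 0.737 and 6.28 in TG mice and 10.6 and 10.4 in WT mice, all under 16, and Rag2 was under 16 on every array, so no fold is given for either. None of these genes passed the test.

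Cell type markers moved with some of these results. Of 19 plasma cell markers 17 were higher at 12 months in TG mice (median 0.49) and 17 in WT mice (median 0.39), with Derl3 at 1.55 ± 0.34 in TG and 1.10 ± 0.34 in WT mice. Derl3 did not pass in TG mice (limma, adjusted p = 0.893) but did with the replicate block (0.0397). Their summed signal was 37826 and 40197 in TG mice and 32546 and 38703 in WT mice at 12 months, against 23942 and 27693 in TG mice and 24922 and 30575 in WT mice at 2 months, and no plasma cell marker was under 16 on all arrays. Jchain, the chain that links IgM and IgA units, had 9991 and 12250 in TG mice and 9556 and 14777 in WT mice at 12 months, against 7365 and 8920 in TG mice and 7480 and 10930 in WT mice at 2 months. Their part in the age pattern of the members was not tested. Between the genotypes at 12 months the plasma cell markers had a median fold of 0.04 (0.23 in replicate 1 and -0.11 in replicate 2).

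Of 23 B cell markers 20 were lower in TG than in WT mice at 12 months, with a median of -0.40 (-0.63 in replicate 1 and -0.28 in replicate 2), and 22 were lower at 2 months, with a median of -0.22. Their summed signal was 24820 and 45146 in TG mice and 37044 and 45029 in WT mice at 12 months, and 38306 and 36569 in TG mice and 40947 and 44830 in WT mice at 2 months, so TG 12-month replicate 1 had the lowest of the 8. The same array had a T cell marker sum of 10299, against 4358 to 7450 on the others, and 10 of 12 T cell markers were higher in TG than in WT mice of 12 months (median 1.00 in replicate 1 and -0.12 in replicate 2). Its NK and cytotoxic marker sum was also the highest, 3895 against 1797 to 2936. The genes of that list were split on this array. Nkg7 (1746), Klrd1 (803), Eomes, Klrk1 and Prf1 were at their highest of the 8 arrays. Gzma (42.5) and Ncr1 (24.4) were at their lowest, and Gzmb (114) was at neither end. The macrophage and monocyte sum of the array was the lowest, 16377 against 20370 to 25782. Of 10 macrophage and monocyte markers 8 were lower in TG than in WT mice of 12 months. These values belong beside the low Igha and the many high members of that array, and their part in either was not tested. The ratio of 3' to 5' Gapdh probe sets, a measure of RNA quality, was 0.843 on it and 1.01 to 1.73 on the others. The same ratio for actin was 1.2 on it, within the 1.1 to 1.48 of the others. The part of the lower B cell markers in the Ighv14-2 and Iglv1 differences was not tested either.

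The genes whose levels ran closest to a constant region over the 8 arrays were sought among 11174 other genes at or over the median level. Ighm 1427329_a_at was most like Rrp7a (Pearson r of 0.98), then Nbas, Mtdh, Uhrf1bp1 and Aen (0.971 to 0.973). Ighg3 1427503_at was most like Cd200r4 (0.96) and Mid1 (0.94), then Mtbp (0.90), Ino80 and Zbtb20 (0.89 each). Igha 1425763_x_at was most like Klc4 (0.99), then Hexa, Adgrg1, Rnf130 and Kcnh1 (0.98 to 0.985). The members were left out of this search by rule, so the absence of immunoglobulin segments among these 15 genes was set in advance. With 8 points that share groups and replicate numbers and so many genes to choose from, the values describe likeness on these arrays alone.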

How the data were processed

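RNA of spleen cells of 8 mice was measured on 8 arrays, 2 a group. Each deposited value is the linear intensity of a probe set, made by the authors with GCOS 1.4 and MAS5 per the submitters' processing notes. After trimming 0.02 of the values at either end, all 8 arrays had a mean of 150.001, so they had been scaled alike. Probe sets were named by the platform annotation, with symbols updated by gene ID. Of 45101 probe sets 64 were controls, 34945 had 1 symbol, 932 several and 9160 none. The annotation can be old, and no genome build is given in the sources used here.

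Intensities were taken as log2(signal + 16), with no filter, and fitted with limma 3.58.1 in R 4.3.3 (lmFit, eBayes with an intensity trend) as 4 group means with 4 residual degrees of freedom. P-values were 2-sided and adjusted by Benjamini-Hochberg over 45037 probe sets. The number of arrays limits the precision. The script was tested on simulated data. The labels call the arrays of a group biologic replicates 1 and 2. Differences between replicate 2 and replicate 1 correlated across probe sets between all 6 pairs of groups (r from 0.482 to 0.668, probe sets at or over the median level), so the number pairs the arrays and marks an unnamed batch, and the fit with it as a block is given where it bears on a call.

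Set for naming were the constant region probe sets and the V probe sets with the smallest p whose groups did not overlap. Of the latter, up to 5 a direction were taken between genotypes and 3 between ages. The brightest and furthest-standing V probe sets of each array were added. So were the 5 genes most like each constant region and the 2 genes with the smallest p of each pathway list. Some of these are not described singly above, among them Ighm 1426196_at, 1427869_at and 1452535_at, and Igkv1-117. A few further members were named after their values were seen. The members and lists were chosen with earlier results of these data known. Alternatives were other pseudocounts, a filter on level, quantile normalization, the replicate block, other variance models, 1 probe set a gene, no _x_at and _s_at probe sets, symbols as given, and leaving out each array. Segment and promoter sequences of the members were not used here.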

Additional observations from a re-analysis of the deposited data

How the results depend on the processing

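With 2 mice a group the number of arrays limits every comparison, and probe sets of this family can bind related transcripts. No member passed the limma test in any of the 5 comparisons under the other settings, the replicate block included (0 members each), or without any 1 array. With the block and only probe sets at or over the median level together, chosen after seeing the data, 1 member passed between TG and WT at 12 months (Ighv14-2) and 5 between 12 and 2 months within TG mice (0.155% of probe sets), namely Igkv4-72 and Ighg3 1447998_at (adjusted p of 0.0311 each), Igkv19-93 1427855_at (0.0323), Ighg3 1427503_at and Ighv14-2 (0.0437 each). The median log2 fold of the members between TG and WT at 2 months, -0.15, was -0.21 with a pseudocount of 1, -0.085 with 64, -0.16 with the filter on level with or without the block, -0.18 with 1 probe set a gene and -0.10 without _x_at and _s_at probe sets. The median within WT mice, 0.59, was 0.77 with a pseudocount of 1, 0.38 with 64 and 0.74 with the filter, with or without the block. Leaving out 1 array gave -0.38 to 0.10 for TG against WT at 2 months, -0.19 to 0.15 at 12 months, -0.19 to 0.38 for their difference, 0.36 to 0.81 for age within WT mice and 0.48 to 0.96 within TG mice. The cause of these shifts was not tested. Of the V share values, 22 moved and 10 did not, most with other probe sets included.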

Other observations

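Among the probe sets with other immunoglobulin symbols, which were not members, several were highest on the TG 12-month replicate 1 array. Igk 1425738_at had 8939 and 2468 in TG mice and 3650 and 4601 in WT mice at 12 months, against 1199 and 2371 in TG mice and 991 and 1367 in WT mice at 2 months. Igk 1427757_at had 968 and 126 in TG mice and 177 and 277 in WT mice at 12 months, against 94.9 and 147 in TG mice and 68.1 and 116 in WT mice at 2 months. A probe set annotated to Ighv1-72 and Ighm, 1427851_x_at, had 893 and 352 in TG mice and 389 and 191 in WT mice at 12 months, and 114 to 176 on the 4 arrays of 2 months.

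Other such probe sets differed by age or genotype. A probe set annotated to Igkv4-55 and Igkv4-68, 1426200_at, had 1114 and 3479 in TG mice and 1501 and 1483 in WT mice at 12 months, against 145 and 843 in TG mice and 162 and 152 in WT mice at 2 months. A probe set annotated to Iglc1 and Iglv1, 1424931_s_at, had 1356 and 1808 in TG mice and 3788 and 6281 in WT mice at 12 months, and 2202 and 1877 in TG mice and 2579 and 2333 in WT mice at 2 months. The lambda signal of the older WT mice was thus above that of the other 6 mice on this probe set also.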
